A study of Mus musculus with 59 samples.

Results

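Mice carrying a single expanded repeat in 1 copy of Atxn3 were compared with wild-type mice in the pons, part of the brainstem and a site of damage in spinocerebellar ataxia type 3. The comparison took the 4 libraries of heterozygous knock-in mice (KIHet) and the 6 wild-type libraries (WT) that stand in the same block of columns as the KIHet libraries. These 10 libraries were chosen by genotype label and column name, without use of measured values, out of the 59 samples of the series. The question was what 1 copy of the expanded allele does to gene expression in the pons.

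Spinocerebellar ataxia type 3 is a dominant ataxia caused by a lengthened run of CAG codons in ATXN3. The gene encodes ataxin-3, a deubiquitinase whose catalytic Josephin domain is followed by ubiquitin-interacting motifs and the polyglutamine run. Neurons of the pons and of the cerebellar nuclei are known to be lost in patients, and oligodendrocytes, the cells that make central myelin, are also known to respond to mutant ataxin-3.

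The KIHet mice were heterozygous for a knock-in allele of mouse Atxn3 with a single repeat of 82 glutamines, and their other copy of Atxn3 was not altered as far as the labels say. A homozygous group with the same allele (KIHom, 4 libraries) and a heterozygous group with a duplicated repeat of 82 glutamines (dupKIHet, 6 libraries) served for direct comparison. A pair of transgenic lines carrying human ATXN3, YACQ84 with 84 glutamines and YACQ15 with 15 (4 libraries each), entered only the shared fit, the principal components and the check of sex. WT mice carried none of these alleles. All groups were of the C57BL/6 strain and all libraries were from pons. The labels used here give neither age nor sex. Xist stood at 1.29 to 2.74 FPKM and Ddx3y, a Y-linked gene, at 0.0215 FPKM or less in all 28 libraries of the block, which is the pattern of females. FPKM set the fragments of a gene against its transcript length and the mapped total, so how deeply a library was sequenced is not known. Nothing in the labels says whether libraries of a genotype shared a litter, and p-values measure the spread between these libraries.

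The repeat lies in the coding sequence. The reference mouse transcript Atxn3-201 (GENCODE M21, GRCm38, chromosome 12) is shown here because its own repeat is the sequence that the knock-in allele lengthens. Capitals mark the run of 6 glutamine codons, 5 CAG and 1 CAA, with 45 coding bases on each side.
Atxn3-201: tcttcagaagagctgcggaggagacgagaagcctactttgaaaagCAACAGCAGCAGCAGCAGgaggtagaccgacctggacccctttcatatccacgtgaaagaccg
The knock-in sequence itself is not in the files used here. FPKM sum reads of both alleles, so the level of the expanded transcript cannot be told apart from that of the unaltered copy.

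Neuronal markers of pons were present in all 10 libraries, whereas a defining myelin gene was nearly absent. The glycine transporter gene Slc6a5, of brainstem inhibitory neurons, stood at 49.0 to 71.2 FPKM in KIHet and 61.5 to 91.3 FPKM in WT. Dbh, of noradrenaline neurons, stood at 11.5 to 18.1 FPKM in KIHet and 9.42 to 16.9 FPKM in WT. Mog, that myelin gene, was at 0.109 to 0.333 FPKM in KIHet and 0.128 to 0.315 FPKM in WT, below the 1 FPKM used as a filter. Mag, another myelin gene, stood at 362 to 490 FPKM in KIHet and 396 to 514 FPKM in WT. Mbp, a major myelin protein gene, stood at 4632 to 5819 FPKM in KIHet and was listed at 0 in all WT libraries. Such a 0 can be a failed estimate, so Mbp and 11 other genes listed at 0 in a whole genotype were left out of the tests.

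Libraries differed on a first principal component in a way that genotype did not account for. The second component went partly with genotype. On the first principal component of 9894 genes (35.6% of the variance) the library numbered 1 of every genotype scored 97.5 to 122, and all others scored -71.3 to 5.1. Its loadings went with the share of G and C bases in the transcript (r = -0.53, across genes). An index of genes above 56% G and C minus genes below 42% was -0.295 to -0.211 in libraries numbered 1. In the others it was -0.107 to 0.345. KIHet library 4 had the highest index and the lowest score of all 28 libraries. On the second component (17.9%) the KIHet libraries scored 41.3 to 73.4 and KIHom 45.5 to 60.8, beside WT libraries 2 and 5 at 42.4 and 46.5 and the other WT libraries at -39.1 to -7.3. There dupKIHet scored -69.3 to 12.4, YACQ84 -30.9 to -15.0 and YACQ15 -30.6 to -9.7. Loadings on that component went with transcript length across 9252 genes (r = -0.51, across genes, which are not independent replicates). A length index was therefore computed for each library as the median log2 level of 1387 genes with transcripts above 6000 bases minus the median of 1091 genes below 1500 bases, each gene relative to its mean over all libraries, among genes averaging 5 FPKM or more. The index was -0.18 to -0.09 in KIHet and -0.18 to 0.20 in WT, where WT libraries 2, 5 and 6 were at -0.11, -0.18 and -0.07 and WT libraries 1, 3 and 4 above 0. KIHom stood at -0.19 to -0.03 and dupKIHet at -0.16 to 0.26.

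**Figure D1:**
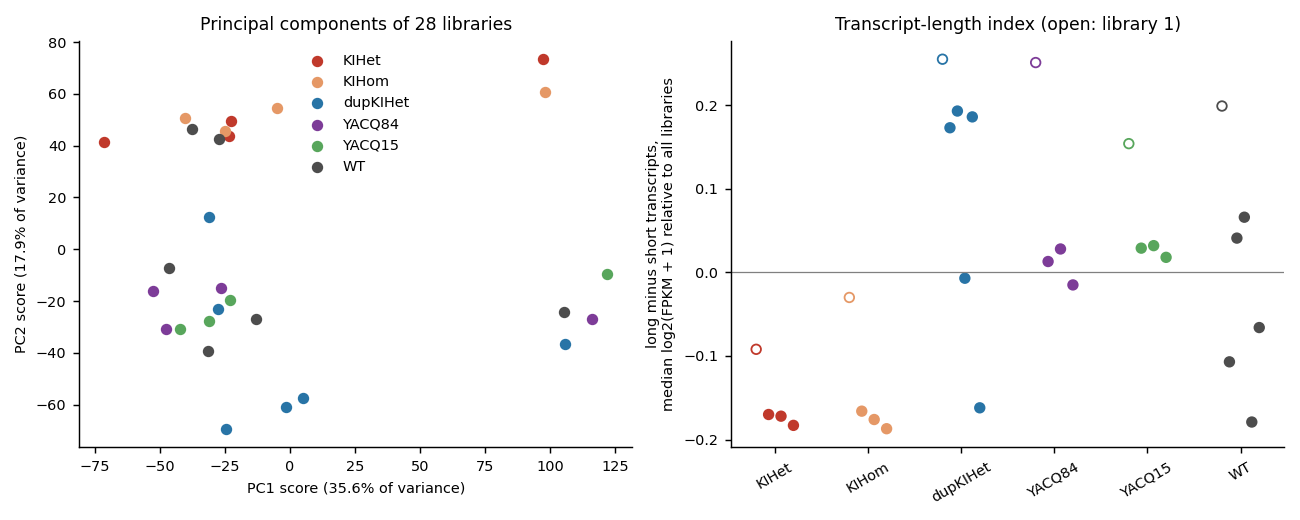
Left, scores of the 28 libraries on the first (x axis) and second (y axis) principal components, 1 point per library, coloured by genotype. Right, transcript-length index per library (y axis, log2 units) by genotype (x axis), with the library numbered 1 as an open circle. The 4 KIHet and 4 KIHom libraries lie at the top of the second component, with WT libraries 2 and 5 beside them, and all 8 have a length index below 0.

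Atxn3, the targeted gene, was read first. It stood at 6.92, 6.19, 5.84 and 5.47 FPKM in KIHet libraries 1 to 4, against a lowest value of 6.20, a median of 7.07 and a highest of 8.15 FPKM in WT. The groups overlapped, with KIHet libraries 2, 3 and 4 below all WT libraries. The difference was -0.18 ± 0.086 (SE) in log2(FPKM + 1), the scale of all differences given here, with an unadjusted limma p of 0.0461 and an adjusted p of 0.461. An exact two-sided permutation test over the 10 libraries, n = 4 and 6, gave p = 0.0476, where the smallest p that 210 permutations allow is 0.00952. Atxn3 therefore did not pass over all genes, and its level does not check the labels, because a lengthened repeat need not alter the amount of transcript.

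In KIHet pons 17 of 14802 genes tested differed from WT at a limma adjusted p under 0.05, 0.115% of all genes, 2 higher (0.0135%) and 15 lower (0.101%). Chdh and Lcn2 rose. Sgk1, Klf2, Arl4d, Ddit4, Gpr116, Nfkbia, Il33, Net1, Gm6658, Pde8a, Rnf125, Tspan2, Polr3e, Rsad1 and Tnfaip6 fell. All 17 had KIHet and WT values that did not overlap, as did 240 genes in the whole table (1.62%), 49 with KIHet above (0.331%) and 191 below (1.29%). At an unadjusted p under 0.05 there were 403 genes higher (2.72%) and 1172 lower (7.92%), and the median difference of all genes was -0.02. The count depended on single libraries. It was 138 without WT library 2, 56 without WT library 5, 15, 10, 7 and 9 without WT libraries 1, 3, 4 and 6, and 5, 7, 6 and 17 without KIHet libraries 1, 2, 3 and 4. With only the KIHet and WT libraries in the fit, limma called 0 genes, with 1189 at an unadjusted p under 0.05.

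**Figure D2:**
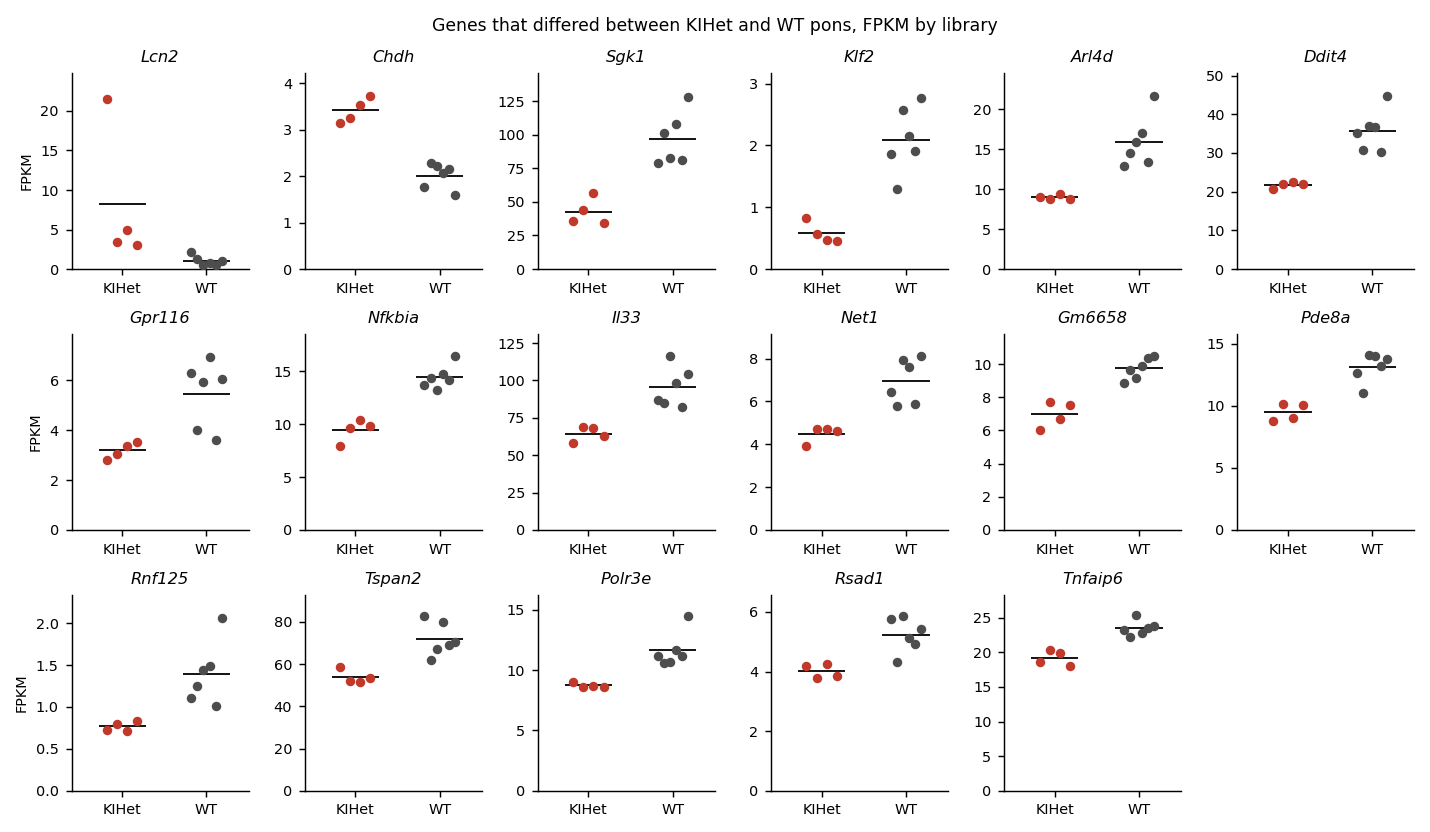
FPKM (y axis, from 0) of the 17 genes by library, KIHet (n = 4) left and WT (n = 6) right in each panel, with a line at the group mean. Every panel shows 2 groups that do not overlap. Lcn2 spreads from 3.07 to 21.5 FPKM within KIHet.

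Chdh, Sgk1, Ddit4 and Klf2 passed in all 10 fits that left out 1 KIHet or WT library. Of the other 11 settings tried they passed in 10, all but the fit of only KIHet and WT libraries. Among the other named genes, Net1 and Nfkbia passed in 9 of 10 fits (adjusted p = 0.0613 for both without KIHet library 1). Pde8a passed in 8, not without KIHet library 1 or 3, where the p was 0.0603 to 0.0613. Tspan2 passed in 7, not without WT library 4 or KIHet library 2 or 3, where the p reached 0.084. Arl4d passed in 6, not without WT library 4 or KIHet library 1, 2 or 3, where the p reached 0.0628. Lcn2 passed in 4, not without WT library 3, 4 or 6 or KIHet library 1, 2 or 3. Gpr116, Il33, Polr3e and Rnf125 passed in 3 each, and Rsad1 and Tnfaip6 in 2. These last 6 genes were lost without KIHet library 1, 2 or 3 and without WT libraries 4 and 6, with p up to 0.218, and some also without WT library 1 or 3 or KIHet library 4.

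Chdh encodes the mitochondrial choline dehydrogenase, which starts the conversion of choline to betaine. It stood at 3.14, 3.26, 3.53 and 3.72 FPKM in KIHet, against a lowest value of 1.59, a median of 2.12 and a highest of 2.29 FPKM in WT. Every KIHet library was above every WT library. Chdh rose by 0.56 ± 0.075 (SE), 1.47-fold on this scale (limma adjusted p = 0.000804). In fits that left out 1 library the estimate stayed between 0.51 and 0.59.

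Lcn2 encodes lipocalin 2, a secreted carrier of iron-binding siderophores made by reactive glia and in the acute phase response. It stood at 21.5, 3.40, 4.90 and 3.07 FPKM in KIHet, against a lowest value of 0.542, a median of 0.865 and a highest of 2.18 FPKM in WT. The groups did not overlap, and KIHet library 1 stood far above the other 9 libraries. Lcn2 rose by 1.83 ± 0.38 (SE, limma adjusted p = 0.0499). Without KIHet library 1 the difference was 1.27 with an adjusted p of 0.24, so the call was lost without that library.

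On the log2(FPKM + 1) scale the largest decrease among the 17 genes was that of Sgk1 (with a pseudocount of 0.1 it was that of Klf2), a serine/threonine kinase whose transcription is induced by glucocorticoids and cell stress. Sgk1 stood at 35.9, 44.3, 56.7 and 33.9 FPKM in KIHet, against a lowest value of 78.8, a median of 92.0 and a highest of 128 FPKM in WT. The highest KIHet library lay below the lowest WT library. Sgk1 fell 2.24-fold (difference -1.17 ± 0.16 SE, limma adjusted p = 0.000804).

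Ddit4 encodes an inhibitor of mTORC1 signalling that is induced by stress and glucocorticoids. It stood at 20.8, 21.8, 22.4 and 21.9 FPKM in KIHet, against a lowest value of 30.3, a median of 36.0 and a highest of 44.8 FPKM in WT. KIHet libraries were within 2 FPKM of each other and all lay below WT. Ddit4 fell 1.60-fold (difference -0.68 ± 0.095 SE, limma adjusted p = 0.000804).

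Nfkbia encodes IκBα, the inhibitor that holds NF-κB in the cytoplasm. It stood at 7.89, 9.67, 10.3 and 9.86 FPKM in KIHet, against a lowest value of 13.3, a median of 14.2 and a highest of 16.4 FPKM in WT. All KIHet libraries were below all WT libraries. Nfkbia fell 1.48-fold (limma adjusted p = 0.00674).

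Sgk1, Ddit4 and Nfkbia were the 3 genes called, all lower, among 13 tested genes of a list of glucocorticoid-responsive genes. Over all genes, 0.101% were called lower and 0.0135% higher. The median difference of the list was -0.003, beside -0.02 for all genes, so in the main fit the list did not stand lower as a whole. Tsc22d3, the glucocorticoid-induced leucine zipper gene, averaged 90.7 ± 4.35 FPKM in KIHet and 101 ± 13.3 FPKM in WT (SD, n = 4 and 6, limma adjusted p = 0.501). Fkbp5, a chaperone of the glucocorticoid receptor, averaged 12.4 ± 3.93 FPKM in KIHet and 13.4 ± 3.50 FPKM in WT (SD, n = 4 and 6, limma adjusted p = 0.918). Of the other members, Plin4, which encodes a lipid droplet protein, was the one at an unadjusted p under 0.05 (0.0441) and lay higher, with 3.41 ± 0.417 FPKM in KIHet and 2.48 ± 2.26 FPKM in WT. The metallothionein genes Mt1 and Mt2, which bind zinc and copper, differed by 0.12 and 0.02 (limma adjusted p = 0.831 and 0.984). With the length index as a covariate the same count of 3 genes passed, and the median of the list was -0.10, beside -0.06 for all genes. Then 10 of 13 differences were negative, with 6 lower and 0 higher at an unadjusted p under 0.05. Without the libraries numbered 1, 9 of 13 were negative, 5 lay lower and 0 higher at that p, and the median was -0.034.

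Promoter windows of the called genes were looked at for short motifs, since Sgk1 and several others are known as stress-induced. RefSeq gives 24 windows for 14 of the 17 genes (build GRCm38.p6, 250 bases before to 50 after a gene start). Motifs were chosen after the values had been seen, and both strands were searched. The full palindrome of the glucocorticoid response element, to which the glucocorticoid receptor is known to bind, was in 1 of these windows, which is 1 of 6 of Sgk1, and in 3 of all 32851 windows (0.00913%). The cyclic AMP response element TGACGTCA was in 1 of the 24 windows, that of Arl4d, and in 1.79% of all windows. The NF-κB consensus site was in 0 of the 24 windows and in 0.155% of all. Shorter motifs were common everywhere. AGAACA, which overlaps the palindrome, was in 5 of the 24 windows and 19.0% of all windows, CCAAT in 7 and 37.4%, GGGCGG in 12 and 35.7%, and CACCC in 10 and 57.5%. The windows that hold the rare motifs are shown in part, upstream of the gene start, with the motif in capitals. A match describes these letters and shows no binding.
Sgk1, chr10:21993655-21993754 (+): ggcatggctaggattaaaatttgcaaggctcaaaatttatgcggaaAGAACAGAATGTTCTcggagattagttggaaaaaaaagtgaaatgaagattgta
Arl4d, chr11:101665441-101665540 (+): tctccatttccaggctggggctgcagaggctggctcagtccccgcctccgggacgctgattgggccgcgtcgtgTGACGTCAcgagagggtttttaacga
In Sgk1 the match lies at bases -189 to -175 from the gene start, and in Arl4d at -26 to -19. The authors' files use another build, and these coordinates belong to RefSeq alone.

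Klf2 encodes a zinc-finger transcription factor known from endothelium, where blood flow induces it. It stood at 0.825, 0.570, 0.467 and 0.450 FPKM in KIHet, against a lowest value of 1.30, a median of 2.03 and a highest of 2.76 FPKM in WT. All KIHet libraries were below 1 FPKM and all WT libraries above it. Klf2 fell by 0.96 ± 0.14 (SE, limma adjusted p = 0.00119), and the pseudocount of 1 understates the change of a gene at this level: with 0.1 it fell by 1.69. Gpr116, an adhesion G protein-coupled receptor gene, also known from endothelium, stood at 2.81, 3.04, 3.38 and 3.53 FPKM in KIHet, against a lowest value of 3.60, a median of 5.99 and a highest of 6.93 FPKM in WT. The groups were separated by less than 0.1 FPKM. Gpr116 fell 1.52-fold (limma adjusted p = 0.0378).

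Among signalling genes, Arl4d, a small GTPase gene of the ARF family, stood at 9.03, 8.73, 9.33 and 8.71 FPKM in KIHet, against a lowest value of 12.9, a median of 15.2 and a highest of 21.6 FPKM in WT. KIHet libraries lay close together below all WT libraries. Arl4d fell 1.68-fold (limma adjusted p = 0.0148). Net1, a guanine nucleotide exchange factor for RhoA, stood at 3.91, 4.70, 4.73 and 4.61 FPKM in KIHet, against 5.77 to 8.10 FPKM in WT with a median of 7.01. It fell 1.44-fold (limma adjusted p = 0.00674), with KIHet library 1 lowest. Pde8a, a cyclic AMP phosphodiesterase, stood at 8.78, 10.2, 9.02 and 10.1 FPKM in KIHet, against 11.1 to 14.1 FPKM in WT with a median of 13.5. It fell 1.34-fold (limma adjusted p = 0.00674), and the groups did not overlap.

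The remaining decreases were small. Rnf125, a ubiquitin ligase gene that acts on antiviral RNA sensors, stood at 0.715 to 0.831 FPKM in KIHet, against 1.01 to 2.06 FPKM in WT (difference -0.42, limma adjusted p = 0.0499). Polr3e, which encodes a subunit of RNA polymerase III, stood at 8.57 to 9.02 FPKM in KIHet, against 10.6 to 14.5 FPKM in WT (1.29-fold lower, limma adjusted p = 0.0428). Tnfaip6, a hyaluronan-binding secreted protein gene, stood at 18.0 to 20.3 FPKM in KIHet, against 22.2 to 25.3 FPKM in WT (1.21-fold lower, limma adjusted p = 0.0428). Rsad1 and the predicted gene Gm6658 differed by -0.31 and -0.43 (limma adjusted p = 0.0497 and 0.0499). In each of these 5 genes the highest KIHet library was below the lowest WT library.

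Genes of mature oligodendrocytes and myelin lay mostly lower in KIHet. Of 33 tested, 2 fell (Tspan2 and Il33), 0 rose and 31 did not pass, where 0.101% of all genes fell and 0.0135% rose. Of the 33 differences 25 were negative, with a median of -0.16 beside -0.02 for all genes. At an unadjusted limma p under 0.05, 12 members lay lower and 1 higher, where 7.92% of all genes lay lower and 2.72% higher. The summed level of the list was 5917 to 6624 FPKM in KIHet and 6454 to 7537 FPKM in WT. In bulk tissue, fewer cells of a type and less RNA per cell cannot be told apart. The index of transcript length also differed between the groups; with it as a covariate the median of the list was -0.21 and 3 members passed. With a covariate for the libraries numbered 1, 7 members passed, all lower; 5 passed without WT library 2, 1 without WT library 3 or 6 or KIHet library 1 or 4, and 0 without WT library 4 or KIHet library 2 or 3.

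Tspan2, a tetraspanin gene of myelinating oligodendrocytes, stood at 58.5, 52.1, 51.6 and 53.5 FPKM in KIHet, against a lowest value of 62.0, a median of 69.6 and a highest of 82.7 FPKM in WT. The groups did not overlap, and KIHet library 1 was nearest to WT. Tspan2 fell 1.32-fold (limma adjusted p = 0.0129). Il33, a cytokine held in the nuclei of glia and known in oligodendrocytes, stood at 57.8, 68.7, 68.0 and 63.0 FPKM in KIHet, against a lowest value of 82.1, a median of 92.5 and a highest of 116 FPKM in WT. KIHet library 1 was the lowest and all 4 lay below WT. Il33 fell 1.47-fold (limma adjusted p = 0.0428).

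Mal, a myelin proteolipid of lipid rafts, stood at 146, 144, 138 and 148 FPKM in KIHet, against 161 to 220 FPKM in WT with a median of 174 (difference -0.30, limma adjusted p = 0.0701). The groups did not overlap. With the length covariate Mal passed (adjusted p = 0.0404), and so did Car2, an oligodendrocyte carbonic anhydrase gene (0.0277).

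Car2 itself averaged 219 ± 12.8 FPKM in KIHet and 258 ± 18.0 FPKM in WT (SD, n = 4 and 6), and the groups overlapped (limma adjusted p = 0.269). Aspa, which cleaves N-acetylaspartate in oligodendrocytes, averaged 39.3 ± 6.94 FPKM in KIHet and 49.0 ± 5.35 FPKM in WT (limma adjusted p = 0.295). Serpinb1a, a serine protease inhibitor gene, averaged 15.3 ± 1.25 FPKM in KIHet and 20.6 ± 3.13 FPKM in WT (limma adjusted p = 0.181).

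Transcription factors of the oligodendrocyte lineage did not follow the myelin genes. Of 11 tested, limma called 0 (1 without WT library 2), 2 lay higher at an unadjusted p under 0.05, and the median was -0.03. Olig2, which specifies the lineage, stood at 22.2, 24.2, 24.04 and 25.7 FPKM in KIHet, against a lowest value of 15.3, a median of 16.5 and a highest of 24.5 FPKM in WT (difference 0.36 ± 0.11 SE, limma adjusted p = 0.206). KIHet library 4 was above all WT libraries and the others overlapped with them. Nkx2-2, a factor of the same lineage, differed by 0.25 (limma adjusted p = 0.438), while Sox10 and Myrf, which drive myelin genes, differed by -0.04 and -0.05 (limma adjusted p = 0.948 and 0.924). Precursor and newly formed oligodendrocyte genes gave 0 called of 19, 3 lower at an unadjusted p under 0.05, and a median of -0.04.

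**Figure D3:**
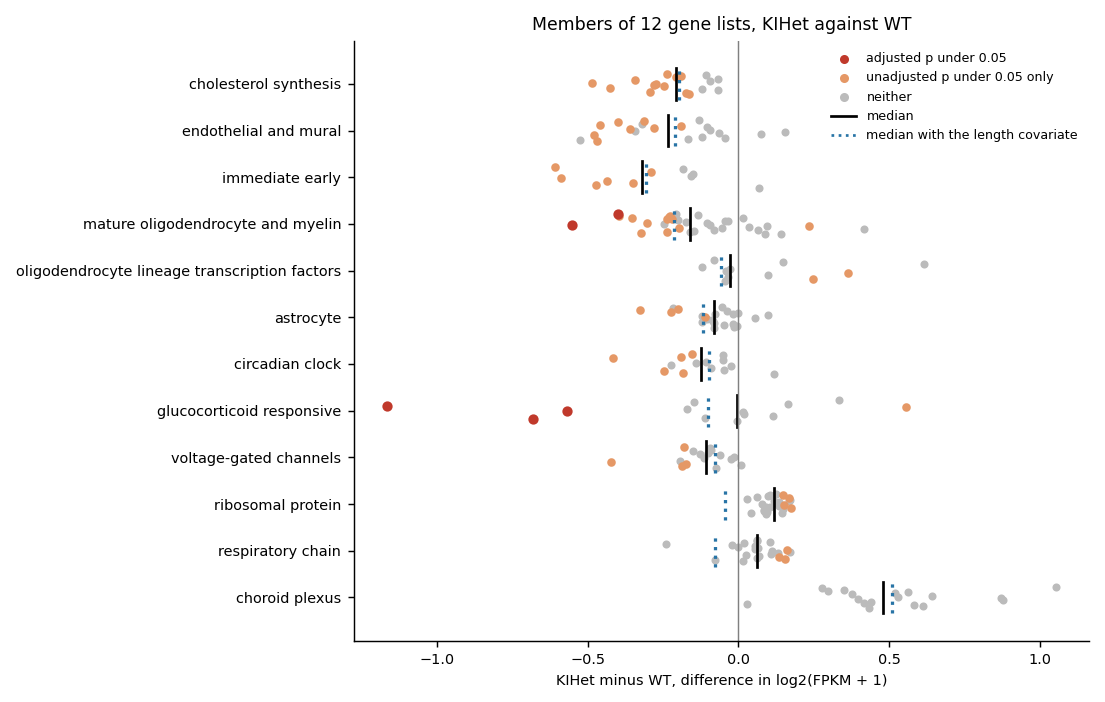
Difference between KIHet and WT in log2(FPKM + 1) (x axis) for the tested members of 12 gene lists (y axis), 1 point per gene, with the list median as a black line and the median with the transcript-length covariate as a dotted blue line. The cholesterol, endothelial, immediate early and myelin lists lie mostly below 0, and the medians of the ribosomal and respiratory chain lists change sign with the covariate.

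Astrocyte genes gave 0 called of 23 (1 with the covariate for libraries numbered 1 and 2 without WT library 2), with a median of -0.08. At an unadjusted p under 0.05, 4 lay lower and 0 higher, where 7.92% of all genes lay lower and 2.72% higher. Slc4a4, the astrocytic sodium bicarbonate cotransporter, stood at 52.5, 54.0, 53.9 and 55.4 FPKM in KIHet, against 58.6 to 75.1 FPKM in WT with a median of 69.5 (limma adjusted p = 0.1). The GABA transporter gene Slc6a11 stood at 159 to 166 FPKM in KIHet and 170 to 209 FPKM in WT (adjusted p = 0.142). The glutamate transporter gene Slc1a2 stood at 164 to 178 FPKM in KIHet and 181 to 221 FPKM in WT (adjusted p = 0.213). In these 3 of the 23 genes the groups did not overlap, where 1.62% of all genes did not, and none of the 3 passed.

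Endothelial and mural genes had mostly negative differences, with 0 called; 3 were called lower with the covariate for libraries numbered 1, 6 were called without WT library 2 and 3 without WT library 5. Of 20 tested, 18 differences were negative with a median of -0.24. At an unadjusted p under 0.05, 8 lay lower, where 7.92% of all genes did. Tek, the angiopoietin receptor gene, stood at 2.92, 2.58, 2.78 and 2.76 FPKM in KIHet, against 2.84 to 5.13 FPKM in WT with a median of 4.23 (limma adjusted p = 0.0755). Flt1, a receptor for vascular endothelial growth factor, stood at 6.48, 5.80, 6.21 and 7.41 FPKM in KIHet, against 6.95 to 11.6 FPKM in WT with a median of 10.2 (limma adjusted p = 0.0986). In both genes 3 of 4 KIHet libraries were below all WT libraries. Pecam1, an adhesion molecule of endothelium, averaged 4.87 ± 0.581 FPKM in KIHet and 6.53 ± 0.688 FPKM in WT (limma adjusted p = 0.107), whereas Cldn5, of the tight junctions, averaged 12.4 ± 2.16 FPKM in KIHet and 12.8 ± 1.78 FPKM in WT, a difference of -0.04 (adjusted p = 0.937). The summed level was 185 to 239 FPKM in KIHet and 204 to 297 FPKM in WT, and with the length covariate the median was -0.21.

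All 17 tested genes of cholesterol synthesis and its control had a negative difference, with a median of -0.21. Limma called 0 of them, and 12 lay lower at an unadjusted p under 0.05, where 7.92% of all genes did. It called 4 lower with the covariate for libraries numbered 1, 4 without WT library 2 and 2 without WT library 5. Sqle, the squalene epoxidase, stood at 31.2, 31.6, 33.5 and 32.2 FPKM in KIHet, against 34.2 to 38.7 FPKM in WT with a median of 37.2 (difference -0.19 ± 0.042 SE, limma adjusted p = 0.0701). The highest KIHet library was below the lowest WT library. Groups did not overlap in 3 of the 17 genes, and in 1.62% of all genes. Lss, the lanosterol synthase, averaged 10.6 ± 1.43 FPKM in KIHet and 15.3 ± 2.39 FPKM in WT (limma adjusted p = 0.142). The summed level of the list did not overlap between groups, 554 to 599 FPKM in KIHet and 604 to 698 FPKM in WT. With the length covariate the median was -0.20 and all 17 stayed negative, and without the libraries numbered 1 the median was -0.20 as well.

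Immediate early genes of neuronal activity had mostly negative differences too. Limma called 0 of 10 (3 without WT library 2) and the median was -0.32. At an unadjusted p under 0.05, 6 lay lower, where 7.92% of all genes did. Nr4a1, an orphan nuclear receptor, stood at 3.24, 3.26, 2.49 and 3.33 FPKM in KIHet, against 3.72 to 7.83 FPKM in WT with a median of 5.38 (difference -0.61 ± 0.16 SE, limma adjusted p = 0.142). Fos averaged 6.32 ± 0.184 FPKM in KIHet and 10.4 ± 3.19 FPKM in WT (limma adjusted p = 0.206), and Egr1 6.37 ± 0.808 FPKM in KIHet and 9.13 ± 2.25 FPKM in WT (0.205). Fos and Nr4a1, 2 of the 10, did not overlap between groups, where 1.62% of all genes did not. WT libraries spread more widely than KIHet libraries in both. Arc, another activity gene, averaged 10.1 ± 1.65 FPKM in KIHet and 9.51 ± 0.705 FPKM in WT (0.888). Clock genes showed 13 of 14 negative differences, 0 called (1 with the covariate for libraries numbered 1), 5 lower at an unadjusted p under 0.05 and a median of -0.12. Per1, a repressor of the clock that is also induced by glucocorticoids, averaged 10.4 ± 2.14 FPKM in KIHet and 14.1 ± 2.35 FPKM in WT (limma adjusted p = 0.167). The labels give no time of death.

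Some lists of long or short transcripts gave another median with the length index as a covariate, and others did not. Over the 9252 genes with a known length and an average of 5 FPKM or more, the median difference was 0.07 below 1000 bases, 0.04 from 1000 to 2000, -0.01 from 2000 to 4000, -0.05 from 4000 to 8000 and -0.10 above 8000 bases. With the index as a covariate the median of all genes was -0.06. Voltage-gated channel genes, with a median transcript of 7760 bases, had 15 of 16 negative differences, 4 lower at an unadjusted p under 0.05, 0 called and a median of -0.11, or -0.08 with the covariate. Kcna2, a potassium channel of myelinated axons, averaged 18.7 ± 0.740 FPKM in KIHet and 26.0 ± 5.67 FPKM in WT (limma adjusted p = 0.285). Ribosomal protein genes, with a median transcript of 1248 bases, had 25 of 25 positive differences, 4 at an unadjusted p under 0.05, 0 called and a median of 0.12. With the covariate that median was -0.04, beside -0.06 for all genes, so it did not fall below that of all genes. The index was computed from these same libraries, with genes below 1500 bases as its short set. A shift of lists of short transcripts is therefore partly built into the covariate, and the change of sign shows no direction by itself. Nuclear genes of the respiratory chain went the same way, 18 of 22 positive with a median of 0.06, 0 called (1 lower with the covariate for libraries numbered 1), and -0.08 with the covariate. Polyglutamine disease genes including Atxn3, with a median transcript of 7926 bases, had 8 of 9 negative differences and 0 called (1 without WT library 2), and their median was -0.10 without and -0.11 with the covariate. Atxn7, the gene of spinocerebellar ataxia type 7, stood at 3.43 to 3.70 FPKM in KIHet, against 3.76 to 4.60 FPKM in WT (limma adjusted p = 0.142).

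Neuronal groups gave no call. Of 14 noradrenergic and serotonergic genes, 11 differences were positive, 1 at an unadjusted p under 0.05, and the median was 0.09. Th, the rate-limiting enzyme of catecholamine synthesis, stood at 7.49, 9.25, 9.97 and 9.65 FPKM in KIHet, against 5.92 to 8.65 FPKM in WT (limma adjusted p = 0.316). Tph2, of serotonin neurons, ranged from 11.3 to 44.1 FPKM in KIHet and from 16.7 to 22.6 FPKM in WT, so KIHet libraries differed among themselves more than WT libraries did. Glra1, a glycine receptor subunit of brainstem and cord, stood at 25.6, 29.8, 34.7 and 31.6 FPKM in KIHet, against 35.1 to 58.3 FPKM in WT with a median of 47.1 (difference -0.54 ± 0.15 SE, limma adjusted p = 0.162). The groups did not overlap. Slc6a5 averaged 59.9 ± 9.10 FPKM in KIHet and 76.5 ± 11.2 FPKM in WT, a difference of -0.35 (adjusted p = 0.24). Neurofilament and synaptic vesicle genes gave 0 called of 11 and 17, none at an unadjusted p under 0.05, and medians of -0.04 and -0.01. With the length covariate the neurofilament median was -0.16 with 10 of 11 negative, beside -0.06 for all genes. The synaptic vesicle median was then -0.01, with 3 genes lower at an unadjusted p under 0.05, and both lists still gave 0 called.

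Genes tied to the function of ataxin-3 showed no call either. Of 18 ubiquitin partners of ataxin-3, Atxn3 itself included, 1 lay higher and 1 lower at an unadjusted p under 0.05, with a median of 0.01. The higher one was Derl1, which encodes a channel component of the endoplasmic reticulum for misfolded proteins, at 30.7 to 34.2 FPKM in KIHet and 27.4 to 32.7 FPKM in WT (limma adjusted p = 0.449). Proteasome subunits gave 0 called of 30, 2 higher and 1 lower at an unadjusted p under 0.05, and a median of 0.04. Heat shock and chaperone genes gave 0 called of 17 and a median of 0.01, with Hsph1 at 0.26 and Dnajb1 at -0.27 (adjusted p = 0.39 and 0.415). Autophagy and lysosome genes gave 0 of 20 with a median of 0.03. Genes of the endoplasmic reticulum stress and ATF4 response gave 0 of 15 with a median of 0.035. Psat1, of serine synthesis, stood at 105, 96.8, 96.2 and 98.8 FPKM in KIHet, against 75.3 to 92.7 FPKM in WT, all KIHet libraries above all WT libraries (difference 0.24 ± 0.059 SE, limma adjusted p = 0.0986). In that list 1 gene passed with the covariate for libraries numbered 1, as when WT library 2 or WT library 5 was left out. Genes of p53 and DNA repair gave 0 of 14, none at an unadjusted p under 0.05, with a median of 0.04. Medians of these lists fell below 0 with the length covariate, while that of all genes went from -0.02 to -0.06. Medians were then -0.13 for p53 and DNA repair, with 3 genes lower at an unadjusted p under 0.05, -0.08 for the proteasome with 26 of 30 negative, -0.06 for endoplasmic reticulum stress, -0.09 for ubiquitin partners, -0.02 for heat shock and -0.001 for autophagy, beside -0.06 for all genes.

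Immune cells and neighbouring tissue were checked by their own markers. Microglial genes gave 0 called of 19 and a median of -0.01, and interferon-response genes 0 of 19 and a median of -0.004. All 18 tested choroid plexus genes had positive differences with a median of 0.48, 0 called and 0 at an unadjusted p under 0.05. Ttr, the main transcript of that tissue, stood at 632, 36.8, 3125 and 33.3 FPKM in KIHet and at 27.7 to 643 FPKM in WT, with KIHet library 3 highest. Without libraries above 1000 FPKM of Ttr, 10 genes were called between KIHet and WT, 8 of them among the 17. Meningeal genes had a median of 0.03 and 0 called of 12. Gabra6, a marker of cerebellar cortex, stood at 19.56, 3.774, 3.815 and 4.673 FPKM in KIHet, against 1.8 to 8.82 FPKM in WT. Cbln3, another such marker, stood at 3.914 to 10.43 FPKM in KIHet and 3.563 to 10.82 FPKM in WT. Of the blood genes, Hba-a1 stood at 12.5 to 14.7 FPKM in KIHet and 18.1 to 56.4 FPKM in WT and Hbb-bs at 108 to 156 FPKM in KIHet and 74.5 to 205 FPKM in WT, neither of which passed.

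Set directly against the homozygous knock-in, KIHet differed in no gene. Limma called 0 of 14802 (0%), with 333 at an unadjusted p under 0.05 (2.25%), 133 with KIHet higher (0.899%) and 200 lower (1.35%). All 17 genes had the same sign against WT in KIHet and KIHom, and 9 of them were called in KIHom as well. Lcn2 differed from WT by 0.15 in KIHom (limma adjusted p = 0.927). Both comparisons share the WT libraries, and the share of all genes with the same sign was not counted, so the shared sign is a description. KIHet and KIHom libraries also lay together on the second principal component. Chdh averaged 3.42 ± 0.263 FPKM in KIHet and 4.10 ± 0.172 FPKM in KIHom (SD, n = 4 each), with a direct difference of -0.21. Sgk1 averaged 42.7 ± 10.3 FPKM in KIHet and 54.0 ± 4.89 FPKM in KIHom. Lcn2 averaged 8.21 ± 8.88 FPKM in KIHet and 1.52 ± 1.73 FPKM in KIHom, a direct difference of 1.68 (limma adjusted p = 1). Acy3, an aminoacylase gene, averaged 3.14 ± 0.396 FPKM in KIHet and 4.70 ± 0.493 FPKM in KIHom, a direct difference of -0.46 with an unadjusted p of 0.000287. Car2 averaged 219 ± 12.8 FPKM in KIHet and 177 ± 15.3 FPKM in KIHom, a difference of 0.30 with an unadjusted p of 0.00191. A p that misses the threshold does not show that 1 and 2 copies act alike. Without the libraries numbered 1, 1 gene passed, the predicted gene Gm12353 (difference -0.37, adjusted p = 0.0437).

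**Figure D4:**
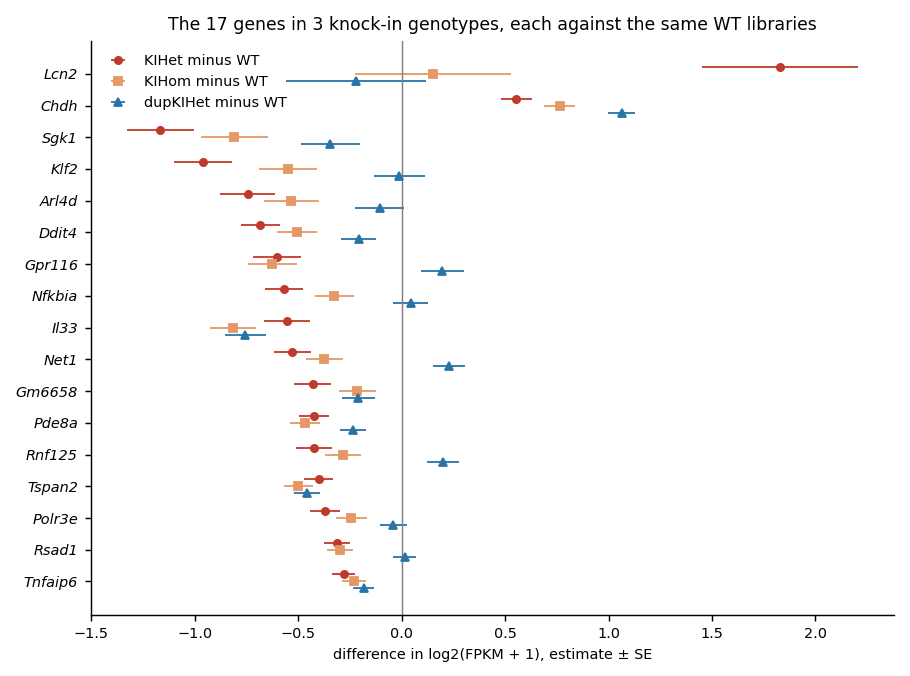
Difference from WT in log2(FPKM + 1) (x axis, estimate ± SE) of the 17 genes (y axis) in KIHet (circles), KIHom (squares) and dupKIHet (triangles). The 3 sets of estimates share the same 6 WT libraries. KIHet and KIHom lie on the same side of 0 for every gene, while dupKIHet lies near 0 for Klf2 (-0.01) and Nfkbia (0.04).

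Set directly against the heterozygous duplicated knock-in, which does not use the WT libraries, KIHet differed in 1577 of 14802 genes (10.7%), 416 higher (2.81%) and 1161 lower (7.84%). The share that was higher, 26.4% of the calls, was 46.2% with median-of-ratios scaling, which called 1656 genes. The length index also differed between these groups, and with it as a covariate 1119 genes were called, 455 of them among the 1577. Atxn3 averaged 6.10 ± 0.620 FPKM in KIHet and 11.8 ± 1.31 FPKM in dupKIHet (SD, n = 4 and 6), a difference of -0.85 (limma adjusted p = 9.84e-07). Of the 17 genes, 12 also differed between KIHet and dupKIHet. Because the 17 were called with the same 4 KIHet libraries, that count is a description and not independent support. Klf2 averaged 0.578 ± 0.173 FPKM in KIHet and 2.07 ± 0.507 FPKM in dupKIHet (adjusted p = 0.000146), and Sgk1 42.7 ± 10.3 FPKM in KIHet and 75.0 ± 7.99 FPKM in dupKIHet (0.0021). Chdh was lower in KIHet than in dupKIHet, where it averaged 5.29 ± 0.561 FPKM (difference -0.51, adjusted p = 0.000157). Il33 and Tspan2 did not pass between the genotypes (differences 0.20 and 0.05, adjusted p = 0.257 and 0.686).

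Astrocyte genes set KIHet and dupKIHet apart. Of 23 tested, 14 were higher in KIHet and 0 lower, where 2.81% of all genes were higher and 7.84% lower. The median difference was 0.34 beside -0.03 for all genes. Against WT, 23 of these 23 genes in KIHet were not called. The lists were chosen with earlier results of these data known, so their counts are a description. Agt, the angiotensin precursor made by astrocytes, averaged 59.5 ± 4.00 FPKM in KIHet and 21.5 ± 3.04 FPKM in dupKIHet (difference 1.44, limma adjusted p = 5.07e-08). Etnppl, an enzyme of phosphoethanolamine breakdown, averaged 39.7 ± 4.74 FPKM in KIHet and 14.7 ± 3.44 FPKM in dupKIHet (1.40, adjusted p = 2.76e-07). The gap-junction gene Gja1 averaged 136 ± 8.85 FPKM in KIHet and 98.3 ± 6.15 FPKM in dupKIHet (0.46, adjusted p = 9.84e-07). With the length covariate 12 astrocyte genes were higher and 2 lower, where 173 of all 14802 genes were higher and 946 lower. Agt and Etnppl then still differed by 1.20 and 1.36.

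Endothelial and mural genes went the other way, with 11 of 20 lower in KIHet than in dupKIHet and 0 higher, where 7.84% of all genes were lower. Their median was -0.39, or -0.28 with 7 lower with the length covariate. Flt1 averaged 6.48 ± 0.682 FPKM in KIHet and 13.1 ± 2.43 FPKM in dupKIHet (difference -0.90, limma adjusted p = 2.99e-05). Mature oligodendrocyte genes gave 3 higher and 0 lower of 33, where 2.81% of all genes were higher and 7.84% lower. Car2 was among the higher ones (difference 0.45, limma adjusted p = 0.000972). With the covariate 5 were higher and 2 lower, where 173 of all 14802 genes were higher and 946 lower. Pcdh15, a protocadherin gene, averaged 3.41 ± 0.538 FPKM in KIHet and 5.97 ± 0.479 FPKM in dupKIHet (-0.66, adjusted p = 6.68e-05).

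**Figure D5:**
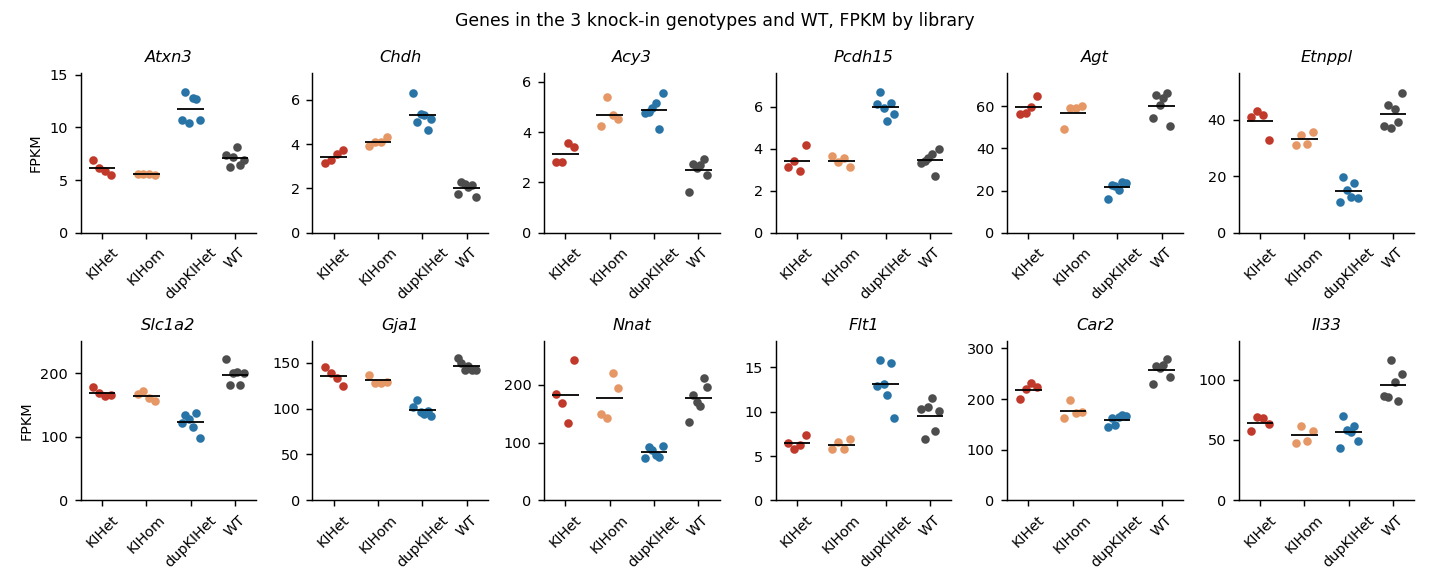
FPKM (y axis, from 0) by library for 12 genes in KIHet, KIHom, dupKIHet and WT (x axis), with a line at each group mean. Apart from Atxn3, the targeted gene, the genes were drawn from those that led in other genotypes. For Atxn3, Chdh, Pcdh15, Agt, Etnppl, Slc1a2, Gja1 and Nnat no dupKIHet library overlaps the KIHet, KIHom or WT libraries. How many of all genes are separated in this way was not counted.

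Genes that had led in the other mutant genotypes of the series were read in KIHet as well. Of 38 tested, 1 rose (Chdh), 2 fell (Il33 and Tspan2) and 35 did not pass, with a median of -0.015. Among all genes tested 0.0135% rose and 0.101% fell. The 3 calls became 7 with the covariate for libraries numbered 1, 6 without WT library 2, and 1 without WT library 4 or KIHet library 2 or 3. Because that list was chosen on other comparisons that partly share these WT libraries, its counts are a description. Acy3 stood at 2.81, 2.79, 3.56 and 3.40 FPKM in KIHet, against 1.63 to 2.94 FPKM in WT (difference 0.26, limma adjusted p = 0.352), and the groups overlapped. Against the same WT libraries the difference of Acy3 was 0.72 in KIHom and 0.77 in dupKIHet. The lipid transporter gene Abca8a averaged 10.1 ± 2.42 FPKM in KIHet and 6.49 ± 0.863 FPKM in WT, a difference of 0.54 (adjusted p = 0.205). Klk6, an oligodendrocyte protease gene, averaged 50.3 ± 13.0 FPKM in KIHet and 59.0 ± 8.41 FPKM in WT, a difference of -0.25 (0.652). Agt, Etnppl and Nnat differed by -0.01, -0.09 and 0.03 in KIHet, with adjusted p-values of 0.984, 0.884 and 0.977.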

How the data were processed

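Per the labels' protocols, pons RNA was obtained by Trizol-chloroform extraction followed by a Qiagen RNeasy clean-up. The authors deposited 1 FPKM value for each gene in each library. Per the submitters' processing notes, tools included TopHat2 and Cuffdiff, besides Trimmomatic, FastQC, DESeq and CASAVA 1.8.2, with the genome build mm8; the notes do not give their roles. The counting of shared or antisense reads is not given in the sources used here, so near-identical family members (Mt1 and Mt2, globins) and overlapping genes are uncertain. FPKM keep no read totals, so depth is unknown and only replicate spread shows precision. The sum of FPKM ran from 430083 to 560516 in the 28 libraries, and 13665 to 13944 genes reached 1 FPKM.

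Of 41386 lines, 27 with a name turned into a date were left out and 132 with a repeated symbol were summed, leaving 41227 genes. The first 3 WT columns of the block match the labels of WT samples but not which sample, so they were used as WT libraries. Another 9 value columns were not used. Libraries are numbered by column within a genotype.

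Tests used log2(FPKM + 1). Genes at 1 FPKM or more in at least 3 of 28 libraries were kept, except 12 listed at 0 in every library of a genotype beside 1 FPKM or more in every library of another. Limma 3.58.1 (R 4.3.3; lmFit, eBayes with a trend) was fitted with 1 mean per genotype over the 28 libraries of KIHet, KIHom, dupKIHet, 2 transgenic lines and WT. Tests were two-sided with Benjamini-Hochberg adjustment over 14802 genes and a threshold of 0.05. The fit was also run on simulated data with independent noise for each gene and library. Such data hold neither principal component described above, so they cannot show how the fit behaves under them. Alternatives were a pseudocount of 0.1, no filter, median-of-ratios scaling, only 2 genotypes, no trend, a replicate block, a choroid plexus covariate, libraries above 1000 FPKM of Ttr left out, and each library left out. After seeing the data, 3 were added: the libraries numbered 1 left out, a covariate for them, and a transcript-length covariate (longest GENCODE M21 transcript). Figures were drawn with matplotlib 3.10.9.

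Named by rule were Atxn3, called genes by size of change (at most 12 in each direction), the smallest unadjusted p up to 24 genes, the genes that led in other genotypes, and the 2 members of each list with the smallest p, passing over predicted genes. Gm6658, Gm12353, Tsc22d3, Fkbp5, Plin4, Aspa, Sox10, Myrf, Pecam1, Lss, Fos, Egr1, Arc, Tph2 and the markers Mog, Mag, Gabra6 and Cbln3 were chosen after their values were seen. The members and lists were chosen with earlier results of these data known. Some genes are not reported here.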

Additional observations from a re-analysis of the deposited data

Results flagged for a closer look

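Within the named genes, 222 groups of 4 KIHet or 6 WT values were examined for a single library far from the rest of its group, and 14 were found. Chance gives about 1 in 20 such groups. In KIHet, Lcn2 was 21.5 FPKM in library 1 against 3.07 to 4.90 in the others, and Net1 was 3.91 FPKM there against 4.61 to 4.73. Ugt8a, which makes the myelin lipid galactosylceramide, was 56.2 FPKM in KIHet library 1 against 42.1 to 44.5. KIHet library 3 was low in Zfp488 (2.87 FPKM, others 3.37 to 3.45) and Nr4a1 (2.49 FPKM, others 3.24 to 3.33) and high in Hbb-bs (156 FPKM, others 108 to 115) and Calcb (5.91 FPKM, others 4.13 to 4.20). KIHet library 4 was high in Irf9, an interferon signalling factor (6.07 FPKM, others 3.86 to 3.96), and in Atxn7 (3.70 FPKM, others 3.43 to 3.46). In WT, library 6 was high in Polr3e (14.5 FPKM, others 10.6 to 11.7), Mal (220.0 FPKM, others 161 to 181) and Hba-a1 (56.4 FPKM, others 18.1 to 29.5). WT library 1 was low in the lysosomal protease genes Lgmn (104 FPKM, others 116 to 121) and Ctsd (185 FPKM, others 208 to 219).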

How the results depend on the processing

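The 17 genes called between KIHet and WT became 10 without the filter on low values, 11 with median-of-ratios scaling, 10 with a choroid plexus covariate, 10 without libraries above 1000 FPKM of Ttr, and 0 with only 2 genotypes fitted. With settings chosen after seeing the data they were 7 without the libraries numbered 1, 130 with a covariate for them and 16 with the length covariate (10 shared). Leaving out 1 library gave 5 to 138. KIHet against KIHom stayed at 0 except for 1 gene without the libraries numbered 1. KIHet against dupKIHet (1577) gave 691 with only 2 genotypes, 3712 with the covariate for libraries numbered 1 and 885 to 2013 when 1 library was left out. A replicate block on the library number gave 358 calls for KIHet against WT and 4240 for KIHet against dupKIHet. Deviations of same-numbered KIHet and WT libraries correlated at 0.21, 0.16, 0.02 and 0.08, and KIHet libraries 1 and 2 but not 3 and 4 correlated best with their own number, so the numbers are not taken to pair the samples. Atxn3 kept its direction and missed the threshold in every setting (-0.23 to -0.11). The cause of these differences between settings was not tested.

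Sign changed only in genes near 0 that did not pass in either setting, for KIHet minus WT. Irf7 was 0.00621 with a pseudocount of 0.1, 0.0125 with scaling and 0.0952 with the replicate block. Agt was 0.0138, 0.0121, 0.0269 and 0.0105 with scaling, the replicate block, the choroid plexus covariate and the covariate for libraries numbered 1. Pcdh15 was 0.00662 with scaling, 0.00605 with the choroid plexus covariate, 0.0353 without libraries high in Ttr, 0.00835 without the libraries numbered 1 and 0.0122 with the length covariate. Without libraries high in Ttr, Mt2 was -0.0186 and Hbb-bs -0.0143. Without the libraries numbered 1, Nnat was -0.0615, Mt2 -0.0244 and Tnfrsf13c 0.0372. With the length covariate Apod was -0.0846, Nnat -0.0946, Mt1 -0.079, Mt2 -0.102 and Lgmn -0.06. Leaving out 1 library gave -0.0634 to 0.0141 for Agt, -0.00331 to 0.161 for Apod, -0.129 to 0.0644 for Cldn5, -0.129 to 0.00202 for Etnppl, -0.0143 to 0.278 for Hbb-bs, -0.103 to 0.115 for Irf7, -0.000739 to 0.0896 for Lgmn, -0.0706 to 0.0913 for Mt2, -0.122 to 0.161 for Nnat, -0.0935 to 0.0353 for Pcdh15 and -0.169 to 0.0239 for Tnfrsf13c.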

Other observations

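Several groups of genes outside the comparisons above gave 0 limma calls between KIHet and WT, and their values are given as a description. Of 16 neuropeptide genes, 13 differences were positive with a median of 0.14, or -0.07 with the transcript-length covariate. Pyy, which encodes peptide YY, stood at 2.01, 0.693, 2.38 and 1.51 FPKM in KIHet, against 0.319 to 1.38 FPKM in WT (limma adjusted p = 0.267), and the groups overlapped. Calcb, a calcitonin gene-related peptide gene of motor neurons, averaged 4.61 ± 0.871 FPKM in KIHet and 3.45 ± 0.675 FPKM in WT (SD, n = 4 and 6, limma adjusted p = 0.329). Etv1, a transcription factor gene from the list of cerebellar and pontine nuclei, averaged 26.6 ± 4.32 FPKM in KIHet and 21.97 ± 3.09 FPKM in WT (limma adjusted p = 0.354). Among 15 imprinted genes, the maternally expressed noncoding RNA gene Meg3 averaged 398 ± 63.1 FPKM in KIHet and 475 ± 39.7 FPKM in WT (limma adjusted p = 0.205).

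Below the threshold, Slc4a11, a membrane transporter gene, stood at 23.4, 19.7, 20.6 and 20.5 FPKM in KIHet, against 24.7 to 38.8 FPKM in WT with a median of 31.2 (limma adjusted p = 0.0619). Tob2, an antiproliferative gene, stood at 8.16 to 9.24 FPKM in KIHet and 9.87 to 11.7 FPKM in WT (0.0619). Prom1, which encodes the membrane glycoprotein prominin 1, stood at 2.35 to 2.54 FPKM in KIHet and 2.68 to 3.92 FPKM in WT (0.0701). In these 3 genes the groups did not overlap, as in 1.62% of all genes.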
